A study of Ovis aries with 3 samples.

Results

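oar-miR-26a and oar-miR-26b are the members of the miR-26 family among the known sheep miRNAs, and they were taken by name as 2 of the 822 miRNA entries listed for each library, of which 146 were known sheep miRNAs. Small RNA was sequenced from intestinal mucosal epithelial tissue from duodenum (DU), cecum (CE), and proximal colon (CO) of Small tailed Han ewes aged 11 months. RNA of the same 3 ewes was pooled for each segment, which left a single library for a segment, without replicates. The counts added up to between 13769740 and 15072945 reads per library. Levels are in normalized reads, the count per 1000000 clean reads that mapped to the sheep genome, and DU, CE, and CO below stand for the libraries. All intervals below are 95% intervals, exact unless named otherwise, that cover counting error only, and every test compares 3 pooled libraries rather than the segments of single animals. In pooled tissue RNA, fewer cells of a type and less miRNA per cell cannot be told apart.

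A mature miRNA is loaded into an Argonaute protein and represses mRNAs that pair with its seed, the bases 2 to 8. The miR-26 family is abundant in many vertebrate tissues and is known for restraining proliferation, with the histone methyltransferase EZH2 and regulators of the cell cycle among its targets. Its precursors lie inside genes of the CTDSP family, which encode small phosphatases that act on RNA polymerase II and on the retinoblastoma protein. In the RefSeq annotation of the sheep assembly ARS-UI_Ramb_v3.0, the precursor gene MIR26A lies on chromosome 3 within the span of CTDSP2, and MIR26B lies on chromosome 2 within the span of CTDSP1. That table gives whole gene spans, so intron and exon were not assigned here. It places 0 miRNA genes within the related gene CTDSPL on chromosome 19, where other mammals carry a further miR-26a precursor. Whether sheep lack that precursor or the annotation leaves it out was not tested.

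The mature sequences are shown because they decide which reads can be told apart. They are written 5′ to 3′ with T for U as in the count files, and capitals mark the seed.
oar-miR-26a: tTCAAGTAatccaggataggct
oar-miR-26b: tTCAAGTAattcaggataggt
The members had 22 and 21 bases and an identical seed. Counted from 1 at the 5′ end, with the base of oar-miR-26a first, they differed at C11T and at C21T, and the last base of oar-miR-26a had no counterpart. Among all 822 entries, these 2 were the only ones with TCAAGTA at bases 2 to 8, and no other entry contained or was contained in either sequence. Apart from the members, the closest entry differed from oar-miR-26a at 7 bases and from oar-miR-26b at 6, over at least 16 aligned bases without gaps. No second length variant of either member was therefore counted under another name in these files.

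oar-miR-26a was among the 6 entries with the most reads in every library. Its count was 703882 reads in DU, 497587 in CE, and 507466 in CO. This gave a level of 42064 normalized reads for DU (41967 to 42160), 29260 for CE (29180 to 29340), and 30630 for CO (30547 to 30713). On this scale the DU library was the highest and the CE library the lowest, with the CO library nearer to CE. Which libraries lay close together depended on the denominator, as given below. As a share of all counted reads, oar-miR-26a took 4.87% in DU (4.86 to 4.88%), 3.301% in CE (3.29 to 3.31%), and 3.69% in CO (3.68 to 3.70%).

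Over all entries, the rank of oar-miR-26a went the other way from its level. The rank was 6 in DU, 3 in CE, and 5 in CO, so the library with the fewest normalized reads gave it the highest place. In the DU library it stood between oar-miR-148a, with 1.26 times its reads (1.256 to 1.263), and oar-let-7a, with 0.873 times (0.870 to 0.876). In the CE library, oar-miR-21 had 3.47 times its reads (3.45 to 3.48), and the predicted entry novel_mir_245, nested in the sequence of bta-miR-192, had 0.986 times (0.982 to 0.990). In the CO library, oar-let-7a had 1.01 times its reads (1.007 to 1.015) and oar-let-7f 0.827 times (0.824 to 0.830). None of these intervals includes 1, so each neighbor differed from oar-miR-26a beyond counting error, although by as little as 1%. The rank in the CO library rests partly on novel_mir_245, which is listed at 0 there. Among the known sheep miRNAs alone, the rank of oar-miR-26a was 4, 3, and 5. CE then still gave it the highest place, but DU ranked it above CO, so the inverse order did not hold between DU and CO.

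oar-miR-26b had far fewer reads and the same order of libraries. Its count was 49045 reads in DU, 30679 in CE, and 33686 in CO, and its levels were 2931 (2905 to 2957), 1804 (1784 to 1824), and 2033 (2012 to 2055) normalized reads. The DU library was again the highest and the CE library the lowest, and no intervals overlapped. Its share of all counted reads was 0.339%, 0.204%, and 0.245%, and its rank was 32, 39, and 37. The next entry above it was a miR-101 entry in DU (novel_mir_307, 1.06 times its reads, 1.045 to 1.071), novel_mir_151 (nested with bta-miR-423-3p) in CE, and novel_mir_2 (identical to bta-miR-30e-5p) in CO. The latter pair could not be ordered against oar-miR-26b at this depth, with ratios of 1.01 (0.997 to 1.03) and 1.003 (0.988 to 1.02). The next entries below it, novel_mir_2, oar-miR-30c, and oar-miR-22-3p, had 0.897, 0.947, and 0.907 times its reads, and their intervals stayed under 1.

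**Figure D1:**
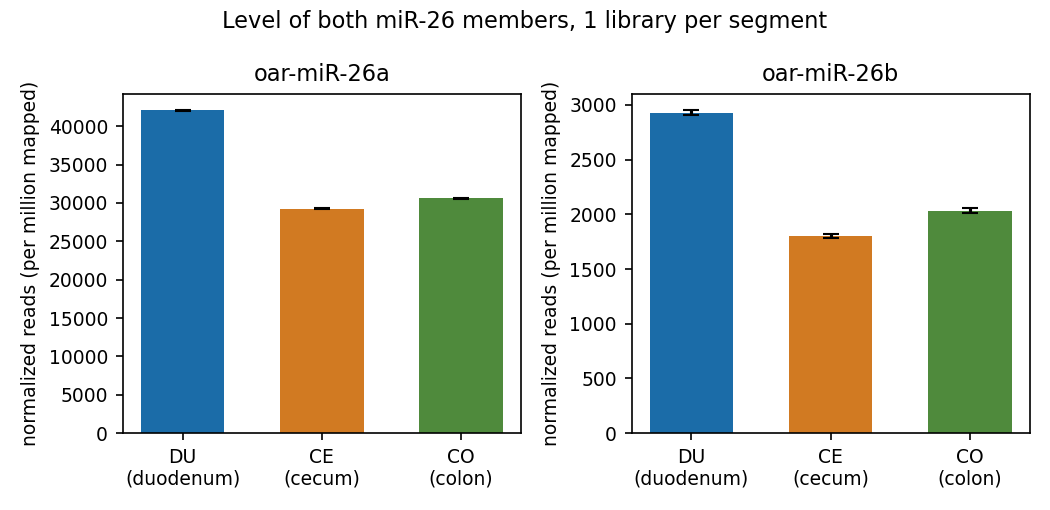
Bars give the normalized reads (y axis from 0) of oar-miR-26a (left) and oar-miR-26b (right) by library, and error bars are exact 95% counting intervals, with 1 library per bar. Both members were highest in the DU library and lowest in the CE library, at 42064 against 29260 for oar-miR-26a and 2931 against 1804 for oar-miR-26b.

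Both members were expressed at lower levels in the CE library than in the DU library. The log2 ratio of CE to DU was -0.52 for oar-miR-26a (-0.53 to -0.52) and -0.70 for oar-miR-26b (-0.72 to -0.68), or 0.696 and 0.616 times the DU level. From DU to CO, the log2 ratio was -0.46 for oar-miR-26a (-0.46 to -0.45) and -0.53 for oar-miR-26b (-0.55 to -0.51), or 0.728 and 0.694 times the DU level. Between the large intestine libraries, CE to CO, it was -0.07 (-0.07 to -0.06) and -0.17 (-0.19 to -0.15), or 0.955 and 0.887 times the CO level. On this scale the large intestine libraries differed less from each other than either differed from DU, for both members, but this order turned when oar-miR-143 was left out of the library size.

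An entry was called differentially expressed where its fold change reached 2 and its p-value, Bonferroni-corrected in the exact Audic-Claverie test, was under 0.01. By this rule 0 of the 2 members were called in any pair. Of all entries tested, 36.5% were called for CE to DU (127 of 348), 33.9% for CO to DU (123 of 363), and 22.7% for CE to CO (74 of 326). Entries called as lower, the direction of both members, were 24.4%, 20.1%, and 12.9% of those tested, and of the known sheep miRNAs tested 11.8%, 6.38%, and 2.13% were called. In this test the fold change kept the members from being called, since their corrected p-values were 0 in double precision against DU. A spread between pooled libraries was assumed instead, as a coefficient of variation of 0.2 or of 0.4 in the edgeR exact test. The corrected p-value of both members in that test was then 1 in every pair. For CE to CO the corrected p-values were 6.28e-114 for oar-miR-26a and 1.96e-49 for oar-miR-26b (exact Audic-Claverie test). At these read numbers such p-values follow from a difference of no more than -4.47% in oar-miR-26a, and no spread between animals enters them.

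Per mapped read, a lower level in both large intestine libraries than in DU was common. Of the 99 entries with at least 1000 reads in every library, 52.5% (52 entries) were below their DU level in both CE and CO, as were 50% of the 52 known sheep miRNAs among them, and 28.3% had the full order of DU above CO above CE that both members showed. The median log2 ratio of these entries was -0.23 for CE to DU and -0.25 for CO to DU. Relative to this median, oar-miR-26a was at a log2 difference of -0.29 for CE and -0.21 for CO, and oar-miR-26b at -0.47 and -0.28. For CE to DU, 30 of the 99 entries had a lower ratio than oar-miR-26a and 18 a lower ratio than oar-miR-26b. For CO to DU these numbers were 31 and 26. Both members thus lay below the middle of the abundant entries and away from their extremes, which reached -7.00 for CE to DU and -3.84 for CO to DU.

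The size of the change depended on the denominator, and a single miRNA took much of each library. oar-miR-143, a miRNA best known from smooth muscle and other mesenchymal cells, had 31.9% of all counted reads in DU, 48.4% in CE, and 48.0% in CO. When levels were taken per 1000000 counted reads other than those of oar-miR-143, oar-miR-26a stood at 71415 in DU, 63991 in CE, and 70921 in CO. The log2 ratio was then -0.16 for CE to DU and -0.01 for CO to DU, so its levels in DU and CO differed by under 1% and were not separated by the test (corrected p = 0.073, exact Audic-Claverie test). For oar-miR-26b it was -0.33 and -0.08. For CE to CO the log2 ratio was -0.15 for oar-miR-26a and -0.25 for oar-miR-26b. With this denominator DU and CO thus lay closest together and CE stood apart, for both members. The denominator still held the entries matched to miR-192, at 57806 normalized reads in DU, 28847 in CE, and 0 in CO. How far that 0 in CO set the order of the libraries was not tested. This denominator also moved the median of the 99 entries by 0.37 for CE to DU and 0.45 for CO to DU, to 0.13 and 0.20. In contrast, per 1000000 reads of known sheep miRNAs, oar-miR-26b reached its lowest ratio, -0.95 for CE to DU, and oar-miR-26a -0.78. Known sheep miRNAs, oar-miR-143 included, held 75.9% of all counted reads in DU, 88.3% in CE, and 90.4% in CO. The median moved by -0.25 and -0.20 with the library size of known miRNAs, and by 0.12 and 0.16 with the TMM library size of edgeR. A library size shifts all entries alike, so the distance of each member from the median stayed the same, and for CO to DU the log2 ratio of oar-miR-26a ranged from -0.01 to -0.65 over the 7 library sizes.

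**Figure D2:**
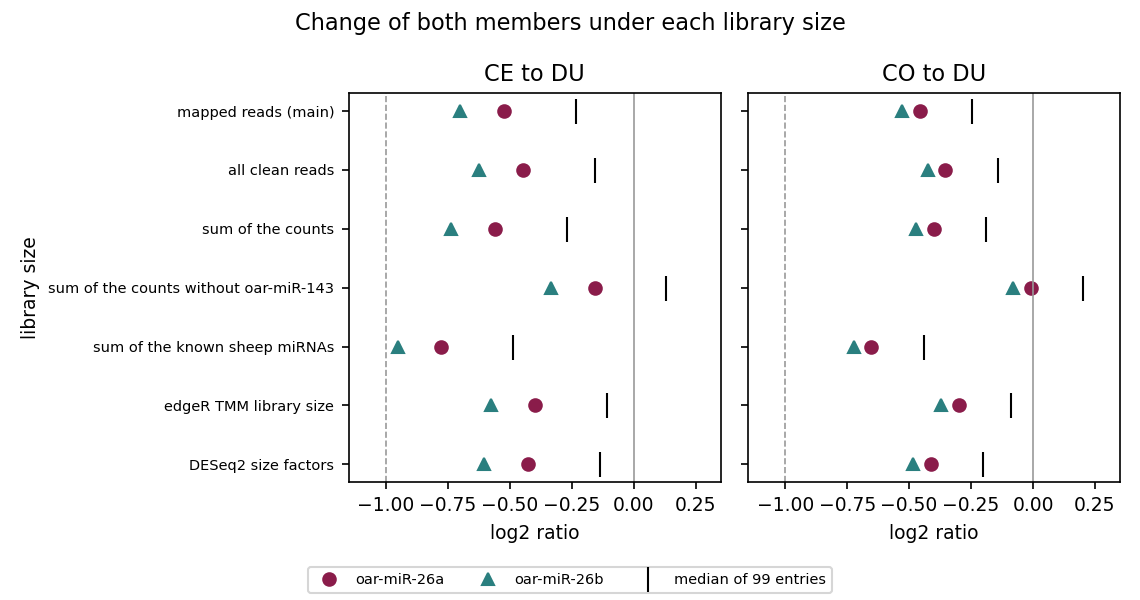
Points give the log2 ratio (x axis) of oar-miR-26a (circles) and oar-miR-26b (triangles) for CE to DU (left) and CO to DU (right) under each of 7 library sizes (y axis), and black bars give the median of the 99 entries with at least 1000 reads in every library. The dashed line marks a fold change of 2 at -1 and the solid line no change, and every member point lies between both lines, from -0.95 to -0.01, to the left of its median.

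Markers of tissue layers shifted between the same libraries. All 8 epithelial markers searched (miR-192, miR-194, miR-215, miR-141, miR-429, and miR-200a, miR-200b, and miR-200c) had an entry, and their summed level was 142048 normalized reads for DU, 49949 for CE, and 38663 for CO. miR-192 and miR-429 were each matched by 2 predicted entries, which were summed. miR-192 was at 0 in the CO library, and no epithelial marker besides it was at 0. All 8 were lower in CE than in DU, whereas 5 of the 8 (the miR-200 members, miR-141, and miR-429) were higher in CO than in DU. Without miR-192 and miR-215, left out after their values were seen, the sum of the other 6 was 28801 in DU, 20667 in CE, and 33833 in CO, so the low sum in CO came from that pair. In the order DU, CE, CO, the level of oar-miR-194 was 9162, 4306, and 6071, and that of oar-miR-200c 8108, 6592, and 8886. Of 6 smooth muscle and mesenchymal markers, 4 had an entry (miR-143, miR-133, miR-199a-3p, and miR-214), with sums of 278817, 432482, and 401375, almost all of it oar-miR-143, and miR-214 at 0 in the DU and CO libraries. Of these 4, 3 were higher in CE than in DU and 2 were higher in CO than in DU. miR-199a-3p went the other way from the sum, at 3299, 2819, and 1842. Of 6 markers of blood and immune cells, 4 had an entry (miR-150, miR-155, miR-181a, and miR-451), with sums of 1948, 1326, and 1438, and miR-451 at 0 in each library. The label of epithelial tissue therefore covers libraries in which a mesenchymal miRNA was the most abundant, and the part of tissue makeup in the levels of both members was not tested.

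The ratio of both members to each other does not depend on any library size, since both counts come from the same library. Each read of oar-miR-26b was matched by 14.4 reads of oar-miR-26a in DU (14.2 to 14.5), 16.2 in CE (16.03 to 16.4), and 15.1 in CO (14.9 to 15.2). The DU library had the lowest and the CE library the highest ratio, and the 3 intervals did not overlap. oar-miR-26b thus made up 6.51% of the reads of both entries in DU (6.46 to 6.57%), 5.81% in CE (5.74 to 5.87%), and 6.22% in CO (6.16 to 6.29%). The study's list of conserved miRNAs also names a sequence with this seed, tch-miR-26a-2-5p, which was not analysed here. These are ratios of reads, and how efficiently each sequence was captured in the libraries was not measured.

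The members did not change by quite the same amount. From DU to CE, the log2 ratio of oar-miR-26a was higher than that of oar-miR-26b by 0.18 (normal-approximation interval 0.16 to 0.20, as for the following differences, Benjamini-Hochberg adjusted p = 1.40e-59 over 3 pairs, two-sided Fisher's exact test on the reads). From DU to CO the difference was 0.07 (0.05 to 0.09, adjusted p = 3.20e-11, Fisher's exact test), and from CO to CE it was 0.11 (0.08 to 0.13, adjusted p = 1.75e-19, Fisher's exact test). In linear terms, the ratio of oar-miR-26a to oar-miR-26b was 13.0% higher in CE than in DU (11.4 to 14.7%), 4.97% higher in CO than in DU (3.47 to 6.48%), and 7.66% higher in CE than in CO (5.96 to 9.40%). These differences exceed counting error, but with 1 library per segment they could not be set against the spread between animals.

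**Figure D3:**
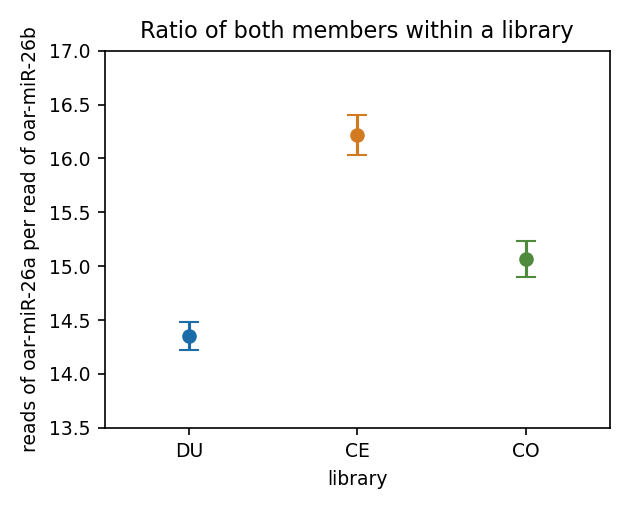
Points give the reads of oar-miR-26a per read of oar-miR-26b (y axis, which does not start at 0) by library (x axis), and bars are exact 95% counting intervals for 1 library each. The ratio was 14.4, 16.2, and 15.1, and the intervals are apart from each other.

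Set beside members of other families, the difference between the miR-26 members was small in both comparisons that involve CO and near the middle for CE to DU. In 31 pairs of known members within 6 other families (let-7, miR-30, miR-10, miR-23, the pair of miR-148a and miR-152, and the pair of miR-200b and miR-200c), each member with at least 1000 reads in every library, the size of the difference in log2 ratio had a median of 0.21 for CE to DU, 0.29 for CO to DU, and 0.31 for CE to CO. The miR-26 values were 0.18, 0.07, and 0.11, and 14, 4, and 5 of the 31 pairs had smaller ones. The largest difference among these pairs was 1.63, for CE to DU, and most of the 31 were let-7 pairs. The pair of miR-29a and miR-29b (0.02, 0.04, and 0.02) was left out for having under 1000 reads. So was the pair of miR-103 and miR-107 (0.17, 0.41, and 0.23). The 31 pairs share members and libraries and the families were picked after levels were known, so these counts are a description.

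The opposite strand (3p arm) of 1 miR-26a hairpin was found among the entries, and it was barely counted. Which sheep precursor it comes from was not assigned here. One predicted entry, novel_mir_230, has the sequence known as chi-miR-26a-3p in goat, and it is shown beside the 3p arm that the list of conserved miRNAs of the study names hsa-miR-26a-2-3p, because the number 2 in that name marks a separate miR-26a precursor. Capitals mark bases 2 to 8.
novel_mir_230: cCTATTCTcggttacttgcacg
hsa-miR-26a-2-3p: cCTATTCTtgattacttgtttc
They have the same bases 2 to 8 and differ at 6 of 22 bases (C9T, G11A, C19T, A20T, C21T, and G22C, counted from the 5′ end with the base of novel_mir_230 first). novel_mir_230 had 19 reads in DU, 23 in CE, and 28 in CO, or 1.14 (0.684 to 1.77), 1.35 (0.857 to 2.03), and 1.69 (1.12 to 2.44) normalized reads. These intervals overlap, and in contrast to the mature strand the DU library had the lowest value. The log2 ratio was 0.25 for CE to DU (-0.69 to 1.21, corrected p = 1, exact Audic-Claverie test) and 0.57 for CO to DU (-0.32 to 1.496, corrected p = 1, exact Audic-Claverie test), so that no difference was detectable at this depth. For each of its reads, oar-miR-26a had 37046 reads in DU (23723 to 61533), 21634 in CE (14418 to 34128), and 18124 in CO (12540 to 27275). A mature strand shared by several precursors cannot be divided among them by its count, so the ratio is not that of 1 hairpin. Reads of the other 3p arms, those of miR-26b and miR-26a-2, were not analysed here.

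The entries whose pattern was nearest to each member were found by the distance between log2 ratios (CE to DU and CO to DU) among the 98 other entries with at least 1000 reads in every library. The nearest to oar-miR-26a was oar-let-7f, a member of the let-7 family of differentiation-associated miRNAs, at a distance of 0.014. Its log2 ratios were -0.53 and -0.45, and its levels were 34498 in DU, 23889 in CE, and 25328 in CO. It was followed by oar-miR-218a (0.056), oar-let-7c (0.081), novel_mir_2 (identical to bta-miR-30e-5p, 0.134), and novel_mir_273 (identical to bta-miR-3431, 0.142). The median distance of all entries to oar-miR-26a was 0.69. The sequences of the 3 nearest entries are printed with capitals again at bases 2 to 8. None could carry the seed of miR-26, since only the 2 members had it among all 822 entries.
oar-let-7f: tGAGGTAGtagattgtatagt
oar-let-7c: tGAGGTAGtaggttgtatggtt
oar-miR-218a: tTGTGCTTgatctaaccatgt

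For oar-miR-26b, the nearest entry was oar-miR-29a, a miRNA known for repressing collagen mRNAs, at a distance of 0.022. Its log2 ratios were -0.71 for CE to DU and -0.55 for CO to DU, with levels of 1145 in DU, 699 in CE, and 784 in CO. The next were oar-miR-25 (0.048), novel_mir_36 (nested with cfa-miR-32, 0.051), novel_mir_149 (identical to bta-miR-92a, 0.078), and novel_mir_268 (identical to bta-miR-98, 0.111), and the median distance was 0.84. Each member stood at place 10 or 11 in the list of the other, at a distance of 0.19, and the lists of 5 had no entry in common. They did have a seed in common, since novel_mir_268 has the same bases 2 to 8 as oar-let-7f and oar-let-7c. The lists changed in part when known sheep miRNAs alone were searched. oar-miR-26b was then among the 5 nearest to oar-miR-26a, whereas oar-miR-26a was not among the 5 nearest to oar-miR-26b. The lists then had oar-let-7c and oar-miR-218a in common. Of the 5 entries nearest to oar-miR-26b, 3 contained the letters ATTGCAC, which is the seed of the miR-25, miR-32, and miR-92 family, and these are printed with that stretch in capitals.
oar-miR-25: ATTGCACttgtctcggtctga
novel_mir_36: tATTGCACattactaagttgca
novel_mir_149: tATTGCACttgtcccggcctgt
Among the 99 entries, 4 contained these letters on the strand given, and the remaining one, oar-miR-3958-3p, was higher in the CE and CO libraries (0.51 and 0.21). The sheep entry of miR-25 starts 1 base later than the usual form of this seed, so its bases 2 to 8 differ from those of the other two. The stretch was noticed after the entries were found.

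**Figure D4:**
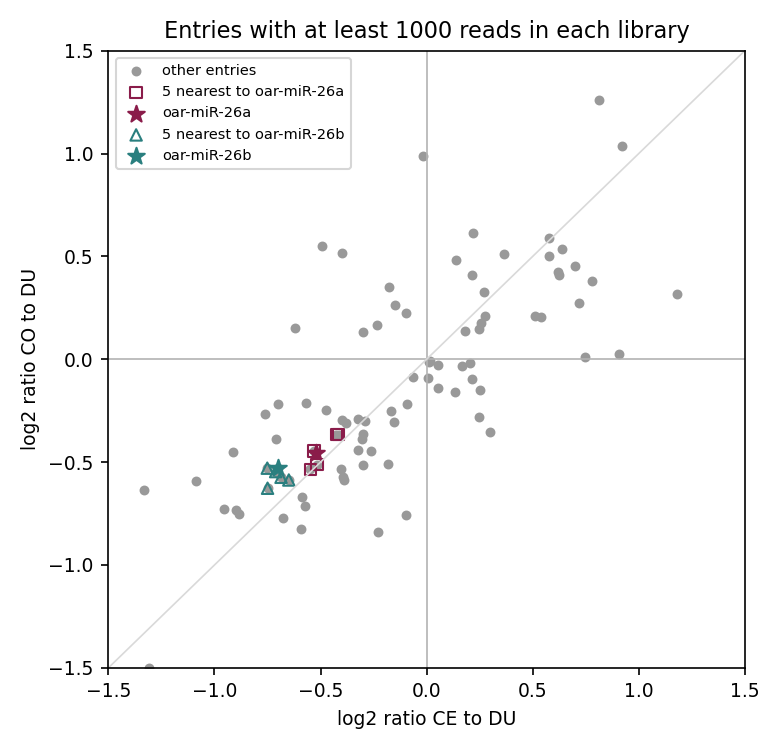
Each point is 1 of the 99 entries with at least 1000 reads in every library, at its log2 ratio of CE to DU (x axis) and of CO to DU (y axis), with the members as stars, the 5 entries nearest to oar-miR-26a as squares, and the 5 nearest to oar-miR-26b as triangles. Both members lie in the lower left quadrant at -0.52 and -0.46 and at -0.70 and -0.53, and 7 entries fall outside the axes at 1.5.

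Per mapped read, most other broadly expressed miRNAs were also lower in CE and CO than in DU, as were most of the 99 entries. For the 99 entries, the median log2 ratio turned positive only with oar-miR-143 left out of the library size. It was then 0.13 for CE to DU and 0.20 for CO to DU, and it was negative with every other library size tried. The values below are per mapped read. In a list of 19 (the 7 let-7 members, the 4 miR-30 members with a 5p name or no arm name, miR-16b, miR-22-3p, miR-25, miR-99a, miR-103, miR-107, miR-125b, and miR-191), 14 had a negative log2 ratio for CE to DU and 16 for CO to DU, against 61 and 64 of the 99 entries (61.6% and 64.6%). None of the 19 was called in any pair (0 of 19), where 11.8%, 6.38%, and 2.13% of the known sheep miRNAs were called for CE to DU, CO to DU, and CE to CO. Their median log2 ratio was -0.32 for CE to DU and -0.29 for CO to DU, against -0.23 and -0.25 over the 99 entries. For CE to DU, 6 of the 19 had a lower ratio than oar-miR-26a, and 1, oar-let-7d at -0.71, a lower ratio than oar-miR-26b. For CO to DU, 5 and 4 of the 19 had lower ratios than oar-miR-26a and oar-miR-26b, and the lowest was oar-let-7i at -0.83. At the other end were oar-miR-125b (0.62 for CE to DU) and oar-miR-30c (0.48 for CO to DU). For CE to CO, 10 of the 19 were negative, with a median of -0.01, and 7 and 4 of them lay below oar-miR-26a and oar-miR-26b.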

How the data were processed

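Small RNA libraries of the duodenum, cecum, and colon were analysed, with 1 library of pooled RNA each. The authors removed low-quality, adapter, polyA, and short reads, mapped clean reads to the sheep genome with SOAP (the labels name Bowtie), identified known miRNAs with miRBase, predicted others with miReap, and deposited raw read counts per entry, without normalization. The smallest count above 0 was 1 read in known and 5 reads in predicted entries. Counts were divided by the mapped reads that the study lists for each library. Its normalization formula divides by all clean reads, which was an alternative here. Libraries were compared with the exact Audic-Claverie test (2 times the smaller tail, scipy 1.17.1, tested on simulated data), Bonferroni-corrected over the entries that reached 1 normalized read in one of both libraries. edgeR 4.0.16 and DESeq2 1.42.0 served only for alternative library sizes, and edgeR also for an exact test with assumed variation, since no replicate gives an estimate of the spread. A 0 was replaced by 0.01 in log2 ratios. Predicted entries were linked to miRNA names by identical or nested sequence. Named entries were the members, entries of their seed or arms, the 5 nearest in pattern, the neighbors in rank, the markers, and the broadly expressed list. Members and lists were chosen with earlier results of these data known. The floor of 3 reads lay at 0.179 (DU), 0.176 (CE), and 0.181 (CO) normalized reads.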

Additional observations from a re-analysis of the deposited data

How the results depend on the processing

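Over 6 other library sizes, the 36 alternative values of the members' log2 ratios were all negative and stayed below a fold change of 2, although CO to DU came close to 0 for oar-miR-26a without oar-miR-143 (-0.01). The 5 alternative filters, corrections, and tests cannot move a ratio. The 36 alternative levels moved beyond counting error, since each library size sets its own unit. For oar-miR-26a in the DU, CE, and CO libraries, they were 25597, 18784, and 20018 per 1000000 clean reads, 48669, 33012, and 36854 per 1000000 counted reads, 71415, 63991, and 70921 without oar-miR-143, 64086, 37401, and 40764 per 1000000 reads of known miRNAs, 45814, 34746, and 37196 with the edgeR TMM library size, and 47842, 35565, and 35917 with DESeq2 size factors. For oar-miR-26b they were, in the same order, 1784, 1158, and 1329, then 3391, 2035, and 2446, then 4976, 3945, and 4708, then 4465, 2306, and 2706, then 3192, 2142, and 2469, and last 3333, 2193, and 2384.

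The number of entries called, which is the background of the members, fell to 48 (CE to DU), 35 (CO to DU), and 15 (CE to CO) with a minimum of 10 reads in each library of a pair, where fewer entries were tested. It fell to 38, 40, and 31 when the edgeR exact test was given a biological coefficient of variation of 0.4, and to 76 for CE to DU at 0.2. The other 26 alternative counts were within 1.5 times the main count. Among known miRNAs only, the rank of oar-miR-26a in the DU library was 4 and that of oar-miR-26b was 21, 25, and 23. Among known miRNAs only, oar-miR-26b joined the 5 entries nearest to oar-miR-26a. Of the 5 in the main list, 3 stayed with at least 100 reads required and 3 among known miRNAs only. In that search, 2 of the 5 nearest to oar-miR-26b stayed. The numbers among known miRNAs were fixed in advance, because leaving out predicted entries changes no distance and keeps every known entry. Adding predicted entries with a nested sequence or the same seed gave no value, because no such entry was found. No paired analysis was possible because there was 1 library per segment, and the pools of the same ewes hold no values of single animals. The read numbers do not limit the members. They do limit the 3p entry, which had 19 to 28 reads and a log2 ratio interval of -0.69 to 1.21 for CE to DU. The smallest change that could be called at that depth was not computed.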
